A study of Rattus norvegicus with 19 samples.

Results

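The 10 genes described here encode heat shock proteins of the cytosol and of mitochondria, with the co-chaperones that work with them: Hspa8, Hsp90aa1, Hsp90ab1, Hspd1, Hspe1, Hsph1, Hspb1, Dnajb1, Ahsa1 and Bag3. They were picked by name, with earlier results of these data known, from a table of 15597 genes, and all 10 were among the 11887 genes tested. Expression was measured by RNA sequencing of poly(A)-selected libraries from primary cultures of ventral spinal cord, taken from wild type Sprague-Dawley rats at embryonic day 14, in which neurons and glia grow together. Of 19 libraries, 5 came from cultures given long-chain polyphosphate (labelled polyPL, here polyP), a polymer of phosphate units, at 100 μM for 90 min. A further 5 came from cultures given, for 90 min, culture medium of mouse astrocytes transgenic for human SOD1 G93A, a mutant form found in familial amyotrophic lateral sclerosis (hSOD1-G93A ACM, here mutSOD1-ACM). Another 4 had 90 min of medium from mouse astrocytes that express human wild type SOD1 (hSOD1-WT ACM, here wtSOD1-ACM), and 5 were left untreated (control). The astrocytes came from newborn mouse spinal cords. Unconditioned medium and medium of non-transgenic astrocytes are not analysed here, so conditioning and the transgene cannot be told apart in a comparison with control. Labels give the age at treatment as 7 days in vitro in one field and 4 in another, and as 7 to 9 days in the growth protocol. The stated question is which transcripts respond to both polyP and mutSOD1-ACM.

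Heat shock proteins are molecular chaperones: they bind unfolded or partly folded proteins and help them to fold, to reach their compartment or to be degraded. Some are made at high levels in unstressed cells, above all in neurons, and others are induced when heat shock factor 1 binds to repeated short elements in their promoters after heat or misfolding. Misfolded SOD1 is a known client of Hsp70, its co-chaperones and small heat shock proteins, and motor neurons are known for a high threshold for mounting the heat shock response.

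The heat shock element is a run of 5-base units, each with GAA at its core in alternating orientation. It is shown here as the sequence by which inducible heat shock genes are known to be controlled together. RefSeq promoter windows (build GRCr8, 250 bases before each start searched) were at hand for 9 of the 10 genes, all but Hsp90aa1. A run of 3 alternating units, GAANNTTCNNGAA or its reverse TTCNNGAANNTTC, read on both strands, was found in the windows of Hspa8, Hspd1, Hspe1 and Hsph1. It was found in 222 of all 33469 promoter windows, or 0.66%. A looser run of 2 units (GAANNTTC or TTCNNGAA), which every run of 3 contains, was in 7 of the 9 windows and in 13.55% of all promoter windows. Hsp90ab1 and Ahsa1 had neither in these windows. The stretches below are written 5′ to 3′ on the strand of the gene, with the matched units in capitals, and Bag3 is added as the gene that moved against the others.
Hspa8 (chr8:50080437-50080496, plus strand): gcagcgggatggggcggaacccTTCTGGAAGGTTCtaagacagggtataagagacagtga
Hspd1 (chr9:64084228-64084287, minus strand): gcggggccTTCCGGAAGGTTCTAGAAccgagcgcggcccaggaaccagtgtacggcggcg
Hspe1 (chr9:64084240-64084301, plus strand): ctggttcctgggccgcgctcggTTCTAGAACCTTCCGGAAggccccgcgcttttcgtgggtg
Hsph1 (chr12:10427308-10427367, plus strand): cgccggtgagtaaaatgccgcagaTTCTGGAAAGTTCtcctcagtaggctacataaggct
Bag3 (chr1:192533306-192533365, plus strand): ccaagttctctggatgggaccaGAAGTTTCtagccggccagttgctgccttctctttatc
Hspd1 and Hspe1 lie head to head, with their starts 289 bases apart on opposite strands, and their capitals are the same 18 bases read from either strand. In Hspa8 the matched run spans positions -55 to -43 from the annotated start, in Hspe1 -65 to -48 and in Hsph1 -36 to -24. The 2-unit run of Bag3 spans -132 to -125. These matches describe sequence only, on another build than the rn6 build of the expression values.

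Libraries differed in depth, in summed FPKM and in cell markers. Relative depth, recovered from the smallest FPKM steps, ran from 0.759 to 1.5 times the middle of the libraries. Summed FPKM ran from 446366 to 515541 and differed by group. It was 483794 to 515541 in polyP libraries, above every control library (446366 to 479964) and every wtSOD1-ACM library (463428 to 471370). With mutSOD1-ACM it was 466894 to 487528, overlapping polyP. Clustering, done after the values were seen, split the libraries across all 4 groups into a set with Mbp, a myelin gene, at 169 to 372 FPKM (set 1, the lower replicate numbers) and a set with 6.54 to 9.62 FPKM (set 2, the last 2 replicates of each group). Neuron markers summed to 922 to 1660 FPKM, while markers of motor neurons were close to 0, with Chat at no more than 1.34 FPKM, Isl1 at no more than 0.45 and Mnx1 at no more than 0.14, so the values below describe mixed ventral cultures and not motor neurons. Control replicate 2 stood apart: it was the lowest control library for 9 of the 10 genes, had the lowest neuron marker sum (922 FPKM, against 1361 to 1524 in the other controls) and the highest microglia marker sum (429 FPKM, against 41.2 to 210.0 in the other controls). Results that rest on it are given without it.

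FPKM scales fragments to gene length and library size, so levels can be set side by side between genes. Hspa8, the constitutive Hsp70 of the cytosol, averaged 1120 FPKM over the 19 libraries and ranked 24 of all genes by mean level. Hsp90ab1, the constitutive Hsp90, averaged 1019 FPKM and ranked 27. The ranges of these genes overlapped, at 904 to 1256 FPKM for Hspa8 and 865 to 1176 FPKM for Hsp90ab1. Hsp90aa1, the stress-inducible Hsp90, came next at 519.8 FPKM on average, clear of both neighbours. The mitochondrial chaperonin pair followed, with Hspd1 at 166 and Hspe1 at 137 FPKM on average and overlapping ranges. Ahsa1 at 68.2 FPKM and Hsph1 at 65.8 FPKM could not be separated either. For Hspa8, Hsp90aa1, Hsp90ab1 and Hspd1 the RefSeq annotation names 33, 16, 23 and 20 pseudogenes in that order, none of them a row of the table, so their levels are uncertain by whatever reads such copies share. Dnajb1 averaged 34.7 FPKM, and the lowest pair was Bag3 at 15.0 and Hspb1 at 13.4 FPKM. Hspb1 varied most over the libraries, from 5.98 to 18.5 FPKM, followed by Bag3 from 8.65 to 21.4 FPKM, while Hsph1 stayed between 56.9 and 69.5 FPKM.

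**Figure D1:**
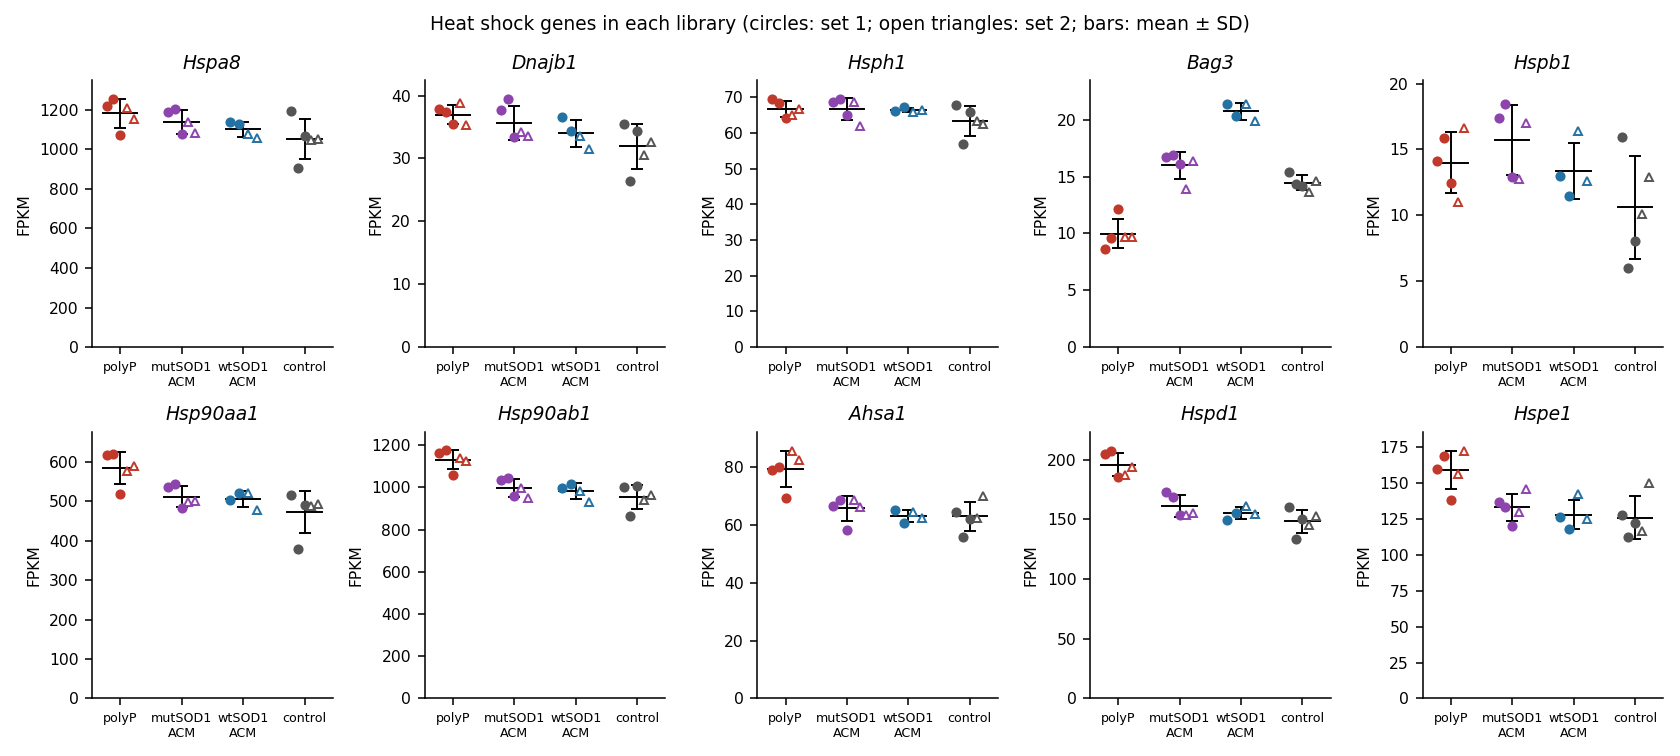
FPKM of each of the 10 genes in every library, one panel per gene, with groups from left to right as polyP, mutSOD1-ACM, wtSOD1-ACM and control. Filled circles are set 1, open triangles set 2, and bars show mean ± SD. Bag3 is lowest in the polyP libraries (8.65 to 12.1 FPKM) and highest in the wtSOD1-ACM libraries (19.9 to 21.4 FPKM), while Hspd1 is highest in the polyP libraries (185 to 207 FPKM).

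The comparison of polyP with control asks what the polymer does to these transcripts within 90 min. Of the 10 genes, 7 rose and Bag3 fell (limma on log2(FPKM + 1), adjusted p under 0.05 over all tested genes), while Hsph1 and Hspb1 did not pass. Changes were modest, between 12.3% and 32.0% in mean FPKM for the genes that rose, while Bag3 fell by 31.0%. The background was broad: 31.8% of all tested genes were called, 23.0% higher and 8.77% lower. The median log2 fold change of the 10 genes was 0.28, against 0.04 for all tested genes, and without control replicate 2 it was 0.22 with 6 of the 10 called. Of the 10, 3 lay above control with no overlap between libraries and 1 below, where 14.6% and 4.31% of all tested genes did so.

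Hspd1, of the mitochondrial chaperonin pair, rose most among the called genes. Hspd1 (Hsp60) forms the ring in which imported mitochondrial proteins fold, and its FPKM was 205, 207, 185, 187 and 194 in the polyP libraries, against 159.9, 134, 149.9, 145 and 153 in control libraries. Every polyP library lay above every control library. The mean was 196 ± 9.91 FPKM with polyP and 148 ± 9.71 FPKM in control (SD, n = 5 each), a log2 fold change of 0.40 ± 0.05 (SE, adjusted p = 0.000123), and 0.43 within set 1 and 0.35 within set 2. Hspe1 (Hsp10), the lid of that ring, stood at 159.5, 169, 138, 156 and 172 FPKM with polyP, against 128, 112, 122, 116 and 150.2 FPKM in control. These groups overlapped, since control replicate 5 was above the lowest polyP library. The log2 fold change of Hspe1 was 0.34 ± 0.08 (SE, adjusted p = 0.00367), 0.36 in set 1 and 0.31 in set 2, where set 2 alone gave an adjusted p of 0.052. The partners kept close to their ratio: Hspd1 over Hspe1 was 1.24 ± 0.082 with polyP and 1.19 ± 0.098 in control (SD, n = 5 each).

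The Hsp90 genes and their activator Ahsa1 were called higher. In set 1 alone the calls of both Hsp90 genes were lost (adjusted p = 0.0598 for Hsp90aa1 and 0.0536 for Hsp90ab1), and after quantile normalization neither was called and Hsp90ab1 stood at -0.05. Hsp90ab1 stood at 1161, 1176, 1058, 1138 and 1124 FPKM in the polyP libraries, against 1002, 865, 1009, 942 and 962 FPKM in control, with no overlap. Its log2 fold change was 0.24 ± 0.05 (SE, adjusted p = 0.00102). Hsp90aa1 stood at 618, 621, 518, 577 and 589 FPKM with polyP, against 516, 378, 491, 489 and 493 FPKM in control. The lowest polyP library was just above the highest control library, and control replicate 2 fell far below the other controls. The log2 fold change of Hsp90aa1 was 0.31 ± 0.07 (SE, adjusted p = 0.00365), and 0.23 without control replicate 2. Ahsa1, which stimulates the ATPase of Hsp90, stood at 79.2, 80.2, 69.6, 85.7 and 82.7 FPKM with polyP, against 64.5, 56.0, 62.3, 62.6 and 70.0 FPKM in control. A single control library, replicate 5, reached into the polyP range. Ahsa1 changed by 0.33 ± 0.06 on the log2 scale (SE, adjusted p = 0.00101), 0.32 within set 1 and 0.34 within set 2. The share of the inducible form was near constant, with Hsp90aa1 over Hsp90ab1 at 0.516 ± 0.018 with polyP and 0.494 ± 0.034 in control (SD, n = 5 each).

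In the cytosolic Hsp70 group the changes were smaller and less stable, apart from Bag3. Hspa8 stood at 1219.8, 1256, 1072, 1208 and 1154 FPKM with polyP, against 1194, 904, 1066, 1047 and 1052 FPKM in control. Only control replicate 1 lay within the polyP range. Its log2 fold change was 0.17 ± 0.06 (SE, adjusted p = 0.0463), and the call was kept in only 2 of 10 fits that each left out a library of these groups, with an adjusted p of 0.126 without control replicate 2. Dnajb1, the J-domain protein that hands clients to Hsp70, stood at 37.8, 37.4, 35.4, 38.8 and 35.4 FPKM with polyP, against 35.5, 26.4, 34.4, 30.6 and 32.6 FPKM in control. Only the highest control library, replicate 1, lay within the polyP range. Dnajb1 changed by 0.21 ± 0.07 on the log2 scale (SE, adjusted p = 0.032), a call kept in 5 of 10 such fits and lost without control replicate 2 (adjusted p = 0.0887). Hsph1, an Hsp110 that acts as nucleotide exchange factor for Hsp70, stood at 69.4, 68.3, 64.2, 65.0 and 66.8 FPKM with polyP, against 67.9, 56.9, 65.8, 63.4 and 62.4 FPKM in control, with overlap. Its log2 difference was 0.08 (95% interval -0.02 to 0.18, adjusted p = 0.24).

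Bag3 went the other way. It is a nucleotide exchange factor of Hsp70 that steers clients to autophagy, and in other cells it is itself a target of heat shock factor 1. Its FPKM was 8.65, 9.62, 12.1, 9.68 and 9.71 in the polyP libraries, against 15.4, 14.3, 14.1, 13.6 and 14.6 in control libraries. Every polyP library lay below every control library. The mean was 9.96 ± 1.29 FPKM with polyP and 14.4 ± 0.665 FPKM in control (SD, n = 5 each), and the log2 fold change was -0.50 ± 0.07 (SE, adjusted p = 0.000131), with -0.50 in set 1 and in set 2. Within set 1 it was uneven when the libraries were split further into 3 clusters: -0.70 for polyP replicates 1 and 2 against control replicate 1, and -0.22 for polyP replicate 3 against control replicates 2 and 3. The call was kept under every alternative run, as were those of Hspd1 and Ahsa1 in this comparison, and the value of Bag3 lay between -0.61 and -0.49 over the alternatives that kept all libraries.

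Hspb1 (Hsp27), a small heat shock protein that holds unfolded proteins and binds the cytoskeleton, was the most variable of the genes. It stood at 14.1, 15.8, 12.4, 11.0 and 16.6 FPKM with polyP, against 15.9, 5.98, 8.08, 10.1 and 12.9 FPKM in control. The control libraries reached from below every polyP library to just under the highest of them. The log2 difference was 0.43 with a wide 95% interval, 0.02 to 0.83 (adjusted p = 0.0997), and it passed only without control replicate 1 (adjusted p = 0.0185). With a library left out the difference ran from 0.26 to 0.58, and it was lowest without control replicate 2.

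The scaling between libraries moved these values. The median log2 fold change of all tested genes was 0.04 as deposited, -0.01 under median-of-ratios scaling, -0.06 with equal summed FPKM and 0.04 after quantile normalization, and the share of calls that were higher was 72.4%, 56.5%, 45.7% and 67.7% under these scalings in that order. The median of the 10 genes was 0.28, 0.21, 0.16 and 0.14 in the same order. Hspd1, Hspe1 and Ahsa1 stayed called higher and Bag3 called lower under all 4 scalings. Hspa8 and Dnajb1 were called in none of the other 3. Quantile normalization, which gives all libraries the same value at each rank, turned Hspa8 to -0.09 and Hsp90ab1 to -0.05 (adjusted p = 0.166 for Hspa8 and 0.283 for Hsp90ab1) and left Hsp90aa1 at 0.09 (adjusted p = 0.241).

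**Figure D2:**
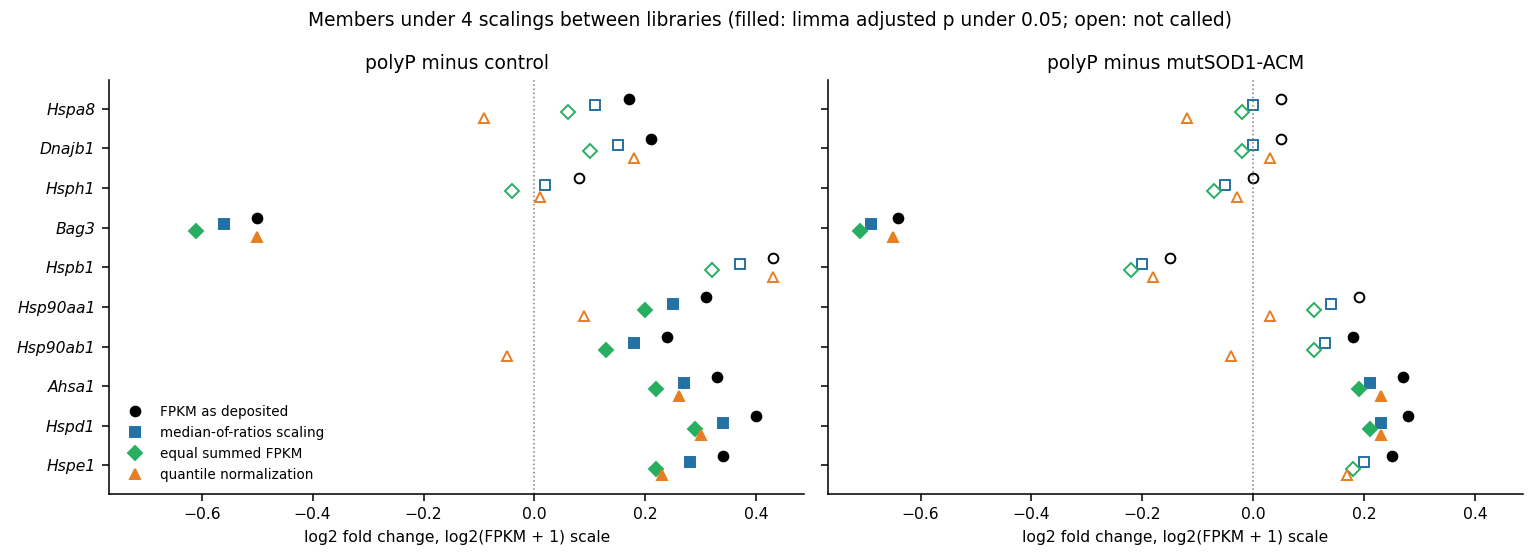
Log2 fold change of each of the 10 genes under 4 scalings between libraries, for polyP minus control (left) and polyP minus mutSOD1-ACM (right), with filled symbols for an adjusted p under 0.05. Bag3 stays between -0.61 and -0.50 against control and Hspd1 between 0.29 and 0.40, while Hspa8 runs from 0.17 down to -0.09.

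Of 40 tested markers of cell types 5 were called for polyP against control, a smaller share than the 31.8% of all tested genes. Progenitor markers (Sox2, Nes, Fabp7 and Top2a) summed to 1915 to 2436 FPKM in the polyP libraries and 1121 to 1445 FPKM in control, a sum made up mostly of Fabp7 (a mean of 1899 FPKM with polyP and 983 FPKM in control). Of these 4, Fabp7 (0.96) and Sox2 (0.66) were called higher, while Top2a (0.34, adjusted p = 0.0904) and Nes (-0.21, adjusted p = 0.0626) did not pass. Of 9 markers of the oligodendrocyte lineage, Olig1 was higher (0.78, adjusted p = 0.0131) and Mobp, at about 1 FPKM, lower (-0.26, adjusted p = 0.0412). Of 5 fibroblast and meningeal markers Col1a1 was lower (-0.49, adjusted p = 0.0473). All 6 microglia markers had lower values with polyP, none called (limma, 0 also at an unadjusted p under 0.05). Their sums were 42.0 to 136 FPKM with polyP and 41.2 to 429 FPKM in control, or 41.2 to 210.0 FPKM without control replicate 2. Of 8 neuron markers 0 were called (0 at an unadjusted p under 0.05). Their sums were 1267 to 1660 FPKM with polyP and 922 to 1524 FPKM in control, or 1361 to 1524 FPKM without control replicate 2. Against mutSOD1-ACM, Fabp7 (0.74), Sox2 (0.58) and Olig1 (0.66) were called higher with polyP and Col1a1 lower (-0.54). These were 4 of 40 tested markers, where 19.7% of all tested genes were called. The part of these cell types in the values of the heat shock genes was not tested. In bulk RNA, a change in the number of cells of a type and a change in RNA per cell cannot be told apart.

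polyP was also set against mutSOD1-ACM, the pair of treatments whose common transcripts the study sought. Hspd1, Hspe1, Hsp90ab1 and Ahsa1 were higher with polyP and Bag3 was lower, while Hspa8, Dnajb1, Hsph1, Hspb1 and Hsp90aa1 did not pass. Here 19.7% of all tested genes were called, 14.8% higher and 4.90% lower, and the median of the 10 genes was 0.12 against 0.04 for all tested genes. Under median-of-ratios scaling, equal summed FPKM and quantile normalization the median of the 10 genes was 0.06, 0.04 and -0.00 in that order, against -0.01, -0.03 and 0.03 for all tested genes, and 3 of the 10 were called under each. In set 1 alone Bag3 was the only one of the 10 called. Hspd1, Hsp90ab1 and Ahsa1 lay above mutSOD1-ACM with no overlap and Bag3 below, where 12.3% and 3.92% of all tested genes did so.

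The Hspd1 values with mutSOD1-ACM were 173, 168, 154, 154 and 155 FPKM, all below the polyP values given above. Its log2 fold change, polyP minus mutSOD1-ACM, was 0.28 ± 0.05 (SE, adjusted p = 0.00268). Ahsa1 stood at 66.8, 68.8, 58.4, 68.8 and 66.2 FPKM with mutSOD1-ACM, again below every polyP library, and differed by 0.27 ± 0.06 (SE, adjusted p = 0.00908). Hsp90ab1, at 1037, 1044, 960.4, 999 and 949.6 FPKM with mutSOD1-ACM, differed by 0.18 ± 0.05 (SE, adjusted p = 0.0146), but its call was lost under each other scaling and its sign turned after quantile normalization (-0.04). Hspe1, at 137, 133, 119.8, 130.0 and 146 FPKM with mutSOD1-ACM, differed by 0.25 ± 0.08 (SE, adjusted p = 0.0334), a call kept in 3 of 10 fits that each left out a library and lost under each other scaling (adjusted p = 0.0851 to 0.0934). Libraries of these groups with the same replicate number deviated together, and with the replicate number as a block 3767 genes were called in place of 2342, with the count among the 10 genes again 5. A fit of only these groups with the block called 5787 genes and 7 of the 10, adding Hsp90aa1 (0.19, adjusted p = 0.0025) as higher and Hspb1 (-0.15, adjusted p = 0.0275) as lower with polyP.

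Bag3 gave the largest difference of the 10 genes between these treatments. With mutSOD1-ACM its FPKM was 16.7, 16.9, 16.1, 13.9 and 16.4, above every polyP value. The mean was 9.96 ± 1.29 FPKM with polyP and 16.0 ± 1.19 FPKM with mutSOD1-ACM (SD, n = 5 each), a log2 fold change of -0.64 ± 0.07 (SE, adjusted p = 5.88e-05), -0.67 in set 1 and -0.59 in set 2.

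**Figure D3:**
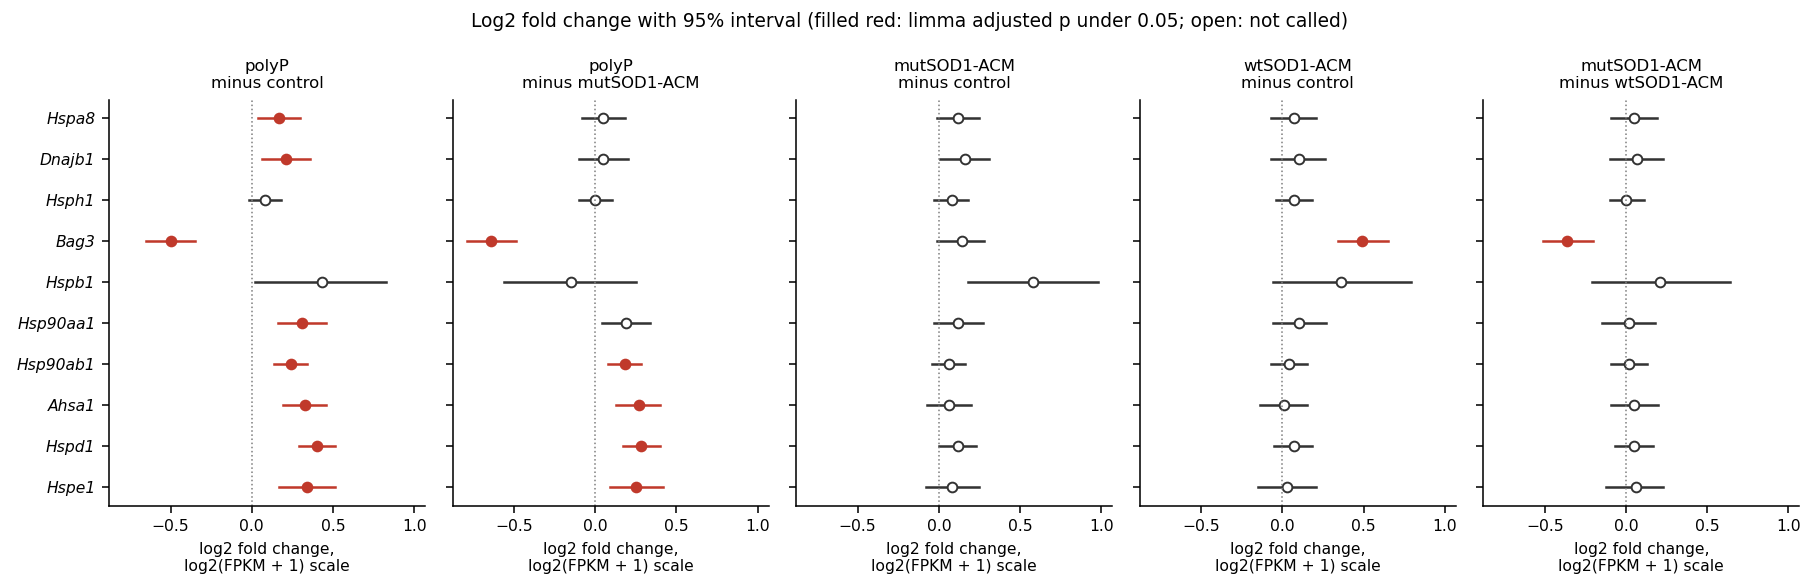
Log2 fold change (log2(FPKM + 1) scale) of each gene with its 95% interval in the 5 comparisons, each named in its panel title. Filled red points have an adjusted p under 0.05: 8 genes for polyP minus control, 5 for polyP minus mutSOD1-ACM, 0 for mutSOD1-ACM minus control, and Bag3 alone for wtSOD1-ACM minus control (0.49) and mutSOD1-ACM minus wtSOD1-ACM (-0.36).

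mutSOD1-ACM against control asks what medium of the mutant astrocytes does. Of the 10 genes 0 passed (limma, with 3 at an unadjusted p under 0.05: Hspb1, Dnajb1 and Hspd1), where 0.0168% of all tested genes, 2 in number, did. All 10 had higher mean values with mutSOD1-ACM, with a median log2 fold change of 0.12 against 0.00 for all tested genes. Without control replicate 2 that median was 0.05, and after quantile normalization it was 0.06 with Hsp90ab1 at -0.01. The comparison shares its control libraries with that of polyP, control replicate 2 included. Hspb1 stood at 17.4, 18.5, 12.9, 12.8 and 17.0 FPKM with mutSOD1-ACM, against the control values given above, and the groups overlapped. Its log2 difference was 0.58 (95% interval 0.18 to 0.98, adjusted p = 0.966), and 0.41 without control replicate 2. For the others the intervals allow at most 0.31, the upper bound of Dnajb1 (0.16, 95% interval 0.01 to 0.31), and Hspd1 differed by 0.12 (0.00 to 0.23).

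With wtSOD1-ACM against control, Bag3 was the only one of the 10 genes called, where 0.631% of all tested genes were (0.564% higher and 0.0673% lower). Its FPKM was 21.4, 20.3, 21.4 and 19.9 with wtSOD1-ACM, above every control library, where 1.14% of all tested genes had no overlap in that direction, and above every library of the other groups. The mean was 20.7 ± 0.761 FPKM with wtSOD1-ACM (SD, n = 4) and 14.4 ± 0.665 FPKM in control (SD, n = 5), a log2 fold change of 0.49 ± 0.07 (SE, adjusted p = 0.00122), 0.48 within set 1 and 0.52 within set 2. The call was kept in all 9 fits that each left out a library and in set 2 alone (adjusted p = 0.00951), and was lost in set 1 alone (adjusted p = 0.167). Of the other 9 genes, Hspb1 had the widest interval (0.36, -0.06 to 0.79), and the rest had log2 differences between 0.01 and 0.10 (0 of these 9 at an unadjusted p under 0.05). Without control replicate 2 the Hspb1 difference was 0.20.

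The conditioned media came from astrocytes with the mutant or with the wild type form of SOD1. They were different astrocyte cultures, so the SOD1 form cannot be told apart from other differences between those cultures. Of the 3 clusters of libraries, the cluster with mutSOD1-ACM replicates 1 and 2 held no wtSOD1-ACM library. Bag3 was again the only one of the 10 called, where 0.471% of all tested genes were (0.463% lower and 0.00841% higher). Its mean was 16.0 ± 1.19 FPKM with mutSOD1-ACM (SD, n = 5) and 20.7 ± 0.761 FPKM with wtSOD1-ACM (SD, n = 4), with no overlap, as for 1.37% of all tested genes in that direction, and the log2 fold change was -0.36 ± 0.07 (SE, adjusted p = 0.037), -0.31 within set 1 and -0.42 within set 2. The call was lost in every one of 9 fits that each left out a library (adjusted p = 0.0555 to 0.173), though the value stayed between -0.38 and -0.31. The other 9 genes had log2 differences between 0.00 and 0.21, with 0 called (0 at an unadjusted p under 0.05).

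The 4 groups thus had Bag3 in an order of its own, with 8.65 to 12.1 FPKM in polyP, 13.9 to 16.9 FPKM in mutSOD1-ACM, 19.9 to 21.4 FPKM in wtSOD1-ACM and 13.6 to 15.4 FPKM in control libraries. mutSOD1-ACM and control were neighbours that could not be separated (0.14, 95% interval -0.01 to 0.28, adjusted p = 0.966). Ratios within a library are unchanged by any scaling that multiplies a whole library by 1 factor, but not by quantile normalization; they are given here from the deposited FPKM. Bag3 was 0.85% ± 0.164 of Hspa8 in polyP, 1.41% ± 0.115 in mutSOD1-ACM, 1.88% ± 0.075 in wtSOD1-ACM and 1.38% ± 0.122 in control libraries (SD, n = 4 for wtSOD1-ACM and 5 for the others). Hspd1 was 16.6% ± 0.671 of Hspa8 in polyP, 14.1% ± 0.394 in mutSOD1-ACM, 14.1% ± 0.827 in wtSOD1-ACM and 14.1% ± 0.548 in control libraries, and each polyP library was above all others. A ratio shows unequal change and not which of its genes changed.

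**Figure D4:**
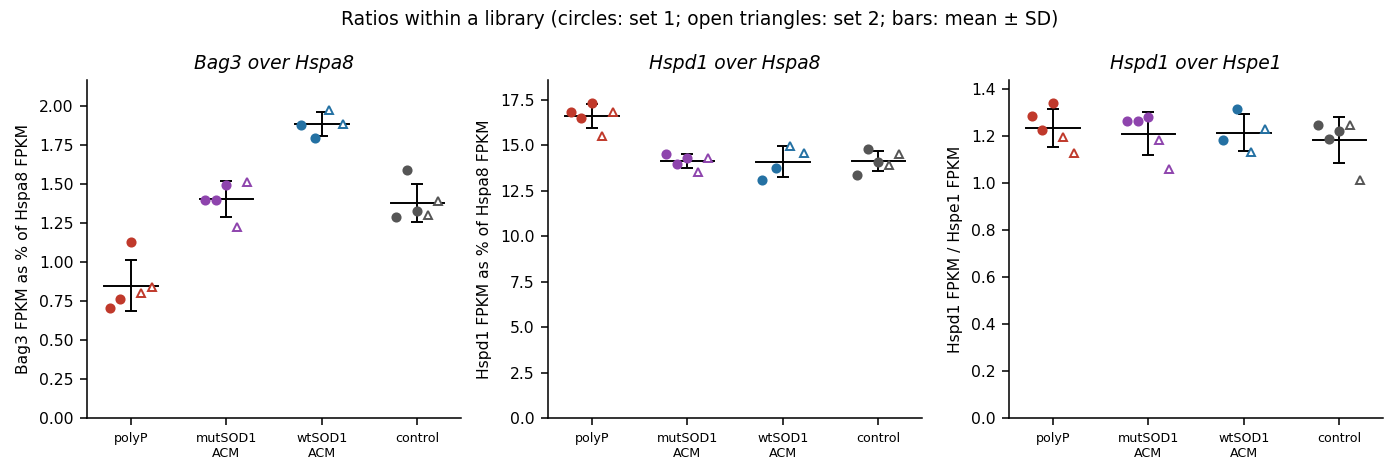
Ratios of FPKM within each library, by group, with mean ± SD: Bag3 and Hspd1 as a percent of Hspa8, and Hspd1 over Hspe1. Bag3 over Hspa8 runs from 0.709% to 1.13% in polyP libraries and 1.29% to 1.59% in control libraries, while Hspd1 over Hspe1 overlaps between all groups.

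The wider chaperone network was described from 9 lists of related genes. Their counts are to be read against all tested genes, of which 23.0% were called higher and 8.77% lower for polyP against control as deposited, and 16.1%, 11.8% and 19.6% higher under median-of-ratios scaling, equal summed FPKM and quantile normalization in that order. With polyP against control, all 13 tested genes listed for the cytosolic chaperonin TRiC and its partner prefoldin were higher. The list also holds Pdcl3, a subunit of neither. Among the 13 were Cct6a at 188 ± 9.67 FPKM with polyP and 144 ± 11.3 FPKM in control (0.39, adjusted p = 0.000215) and Pfdn1 (0.44, adjusted p = 0.000216). Their median was 0.32, and 0.21 to 0.26 under the other scalings, with 11 to 13 called. Of 16 Hsp90 co-chaperones 8 were higher and 0 lower, led by Ptges3 (p23) at 204 ± 12.7 FPKM with polyP and 151 ± 13.0 FPKM in control (0.43, adjusted p = 0.000131), beside Fkbp4 (0.30), Sugt1 (0.41) and Stip1 (0.24), the adaptor between Hsp70 and Hsp90. Under the other scalings 5 to 7 of these 16 were higher. Of 15 cytosolic J-domain genes 8 were higher (6 to 8 under the other scalings), with Dnajc9, a histone co-chaperone, at 0.45 (adjusted p = 6.47e-05) and Dnaja2 at 0.32. Of 9 other Hsp70 co-chaperones 6 were higher as deposited and 1 or 2 under the other scalings and without control replicate 2, with St13 (Hip) at 0.48 (adjusted p = 0.000293). Of 5 tested genes listed as small heat shock proteins 3 were higher (2 or 3 under the other scalings). They were Hspb6 (0.39), Hspb11 (0.41) and Cryab, a small heat shock protein of glia, at 0.41 (adjusted p = 0.0136). Despite its symbol, Hspb11 encodes an intraflagellar transport protein and not a small heat shock protein. Of 3 tested genes of heat shock factors and their regulators 2 were higher, Hsbp1 (0.33) and Hsf2 (0.22). Under the other scalings 1 or 2 of these 3 were higher, and 1 without control replicate 2.

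The inducible Hsp70 pair did not rise. In the list of 10 cytosolic Hsp70 and Hsp110 genes, 3 were higher and 1 lower, near the 23.0% and 8.77% of all tested genes. Under each other scaling 2 were higher, and 0 were lower after quantile normalization. Hspa1a stood at 3.19 to 6.46 FPKM with polyP and 3.06 to 6.61 FPKM in control (0.12, 95% interval -0.31 to 0.55, adjusted p = 0.686). Hspa1b stood at 4.71 to 6.78 FPKM with polyP and 6.51 to 11.2 FPKM in control (-0.49, adjusted p = 0.0451). Its call was lost without control replicate 2 (adjusted p = 0.0679) and after quantile normalization (-0.46, adjusted p = 0.0541). These genes are near-identical copies, so how reads were shared between them is uncertain. Hspa4, another Hsp110, was higher by 0.18 (adjusted p = 0.00737) and Hspa9, the Hsp70 of mitochondria, by 0.17 (adjusted p = 0.0069), both only as deposited among the 4 scalings. Hsf1 stood at 18.3 ± 5.42 FPKM with polyP and 23.0 ± 6.11 FPKM in control (-0.32, 95% interval -0.81 to 0.16), and Trap1, the mitochondrial Hsp90, differed by -0.03 (-0.20 to 0.14). Of 15 mitochondrial chaperone and protease genes 7 were higher and Spg7 was lower as deposited, with 1 to 4 higher under the other scalings.

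Part of the chaperones of the endoplasmic reticulum fell. Of 14 genes, 5 fell and 0 rose (8.77% and 23.0% of all tested genes), 11 had a log2 difference below 0 and 3 above. Their median was -0.15 as deposited and -0.30 to -0.22 under the other scalings. Without control replicate 2 it was -0.11, with 5 again called lower. Hyou1, the Hsp110 of that compartment, averaged 74.2 ± 6.62 FPKM with polyP and 115 ± 12.7 FPKM in control (-0.62, adjusted p = 0.000127). Hspa5, its Hsp70, fell by 0.47 on the log2 scale (adjusted p = 0.000327). Against mutSOD1-ACM, the TRiC and prefoldin list had 8 of 13 genes higher with polyP (median 0.23) and the endoplasmic reticulum 5 of 14 lower (median -0.17). There 14.8% of all tested genes were called higher and 4.90% lower. Under median-of-ratios scaling, equal summed FPKM and quantile normalization 4, 5 and 7 of the 13 were higher, against 6.47%, 6.62% and 9.39% of all tested genes. The endoplasmic reticulum had 5, 6 and 7 of 14 lower in that order, against 5.97%, 6.28% and 5.15%. Among the 100 genes of the lists, 0 were called for mutSOD1-ACM against control (4 at an unadjusted p under 0.05), 0 for wtSOD1-ACM against control (2) and 0 for mutSOD1-ACM against wtSOD1-ACM (2). With 0.0168%, 0.631% and 0.471% of all tested genes called in these comparisons, a count of 0 says nothing particular to the lists.

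**Figure D5:**
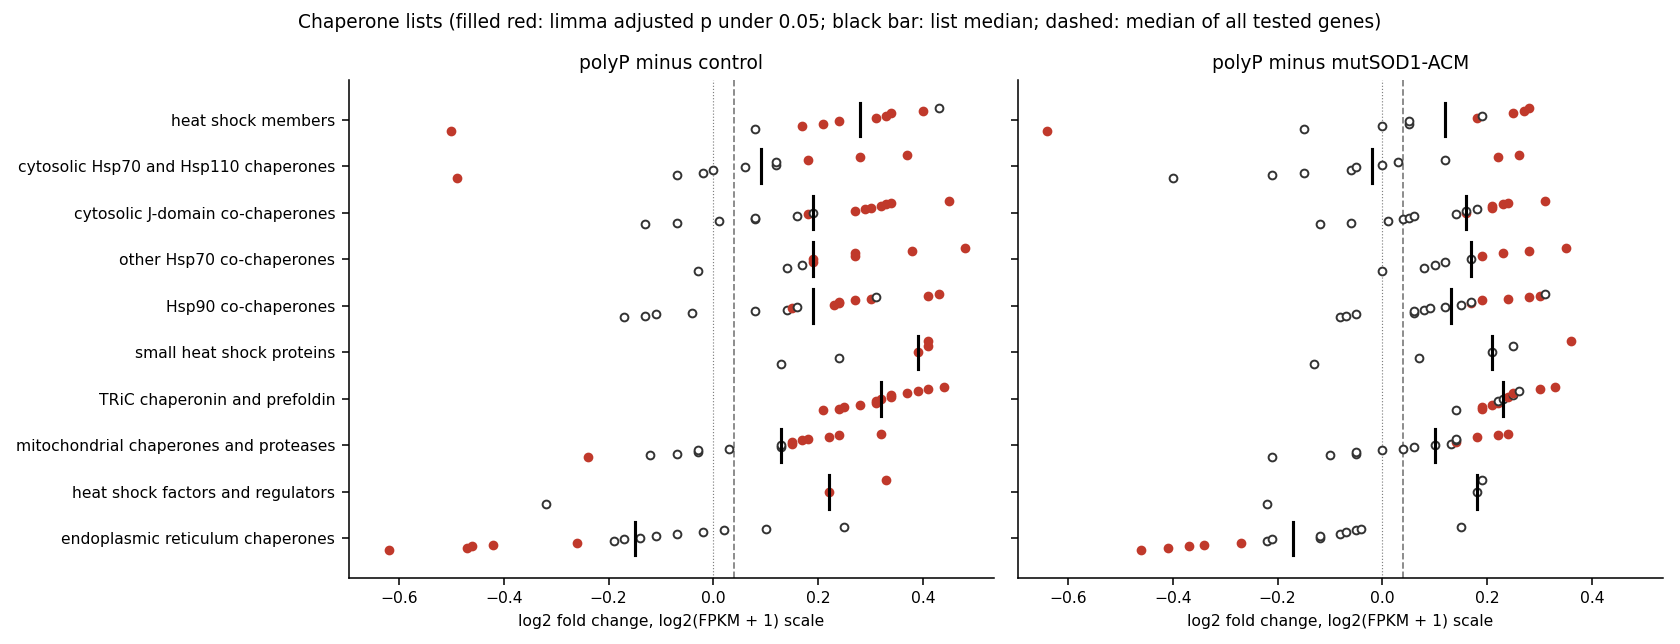
Log2 fold change of each tested gene of the 10 heat shock genes and of 9 related lists, for polyP minus control (left) and polyP minus mutSOD1-ACM (right). Filled red points have an adjusted p under 0.05, black bars are list medians and the dashed line is the median of all tested genes (0.04). All 13 genes of the TRiC and prefoldin list are red and above 0 on the left, and 5 of 14 endoplasmic reticulum genes are red and below 0.

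Genes with the most similar profile to each of the 10 were ranked by the root mean square difference of centred log2(FPKM + 1) over the 19 libraries, among 11886 genes. A difference is to be read against the gene's own SD over the libraries, since a flat gene lies about 1 SD away from any profile. The own SD of Hsp90aa1, Hsp90ab1, Hspd1, Hspe1, Dnajb1 and Ahsa1 lay between 0.116 and 0.182. Dnajb1 was the only one whose closest gene was another of the 10, Hspa8 (0.050). Closest to Hsp90ab1 was Stip1 (0.032), an Hsp90 co-chaperone, then Ptpa (0.033), and closest to Hspd1 were Hnrnpa1 (0.039) and the TRiC subunit Cct5 (0.045). Hsp90aa1 was closest to Strbp (0.045) and to the J-domain gene Dnaja1 (0.046). Hspe1 was closest to the ribosomal protein genes Rpl30 (0.050) and Rpl27a (0.056), and Ahsa1 to Mlf2 (0.038) and the proteasome subunit gene Psma7 (0.039). Hspa8 (own SD 0.111) was closest to Tug1 (0.046) and Ubxn4 (0.049), while Dnajb1 after Hspa8 to Gsk3a (0.058). Hsph1 varied so little (own SD 0.069) that its nearest genes, Ctnna2 (0.054) and Mprip (0.055), are hardly alike by this measure. Hspb1 (own SD 0.371) was closest to the smooth muscle actins Acta2 (0.160) and Actg2 (0.171). Bag3 (own SD 0.372) was closest to Kctd11 (0.113) and Itpkc (0.140), and its nearest among the 10 genes, Hsph1, was no nearer than a flat profile (0.373).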

How the data were processed

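The authors deposited 1 table of FPKM (fragments scaled to gene length and library size) with 2 decimals per gene and library, per the file headers. HISAT is the aligner and rn6 the build named in the submitters' processing notes. Not given in the sources used here are versions, annotation, the tool that made the FPKM and any scaling of libraries to each other, and the absolute depth is unknown. Relative depth was estimated from 199 rarely detected genes, of whose 1496 values 90.8% lay within 0.1 fragment of a whole number. The depths were fitted to whole numbers on these same values, so that share is no independent check of them. The labels' protocols speak of 4 to 5 independent cultures for each condition, and the series text of quadruplicates. p-values measure the spread between these libraries.

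Genes with an FPKM of 1 or more in at least 4 of 19 libraries were tested on log2(FPKM + 1) with limma 3.58.1 (R 4.3.3, statmod 1.5.0), all 4 groups in 1 fit, empirical Bayes with trend and robust estimation, two-sided, Benjamini-Hochberg adjusted over all 11887 genes, and called at an adjusted p under 0.05. Folds understate the change of low genes. The procedure was tested on simulated data. Tables and figures were made with Python 3.11.15 and matplotlib 3.10.9.

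The 10 genes, the 9 lists of related genes and the 8 lists of cell type markers were chosen with earlier results of these data known. The text names the 10 genes, up to 4 called genes of each related list with the smallest p, Hspa1a, Hspa1b, Hsf1, Hspa9, Hspa4 and Trap1 whatever their result, and the 2 genes most similar to each of the 10. Spg7 and the cell type markers named beside results were chosen after their values were seen.

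Replicate numbers were taken as pairs only for polyP against mutSOD1-ACM, where all 5 pairs correlated in their deviations from the group means (r = 0.69 to 0.76, each highest with its own number). In the other comparisons the lowest correlation ran from -0.72 to 0.08. Alternatives were another pseudocount (0.1), no filter, 3 other scalings, fits of only the groups compared, the library sets, a replicate block, no trend, and leaving out each library. A term for 3 clusters of libraries and a block within polyP and mutSOD1-ACM alone were chosen after seeing the data.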

Additional observations from a re-analysis of the deposited data

Results flagged for a closer look

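In 3 of 40 groups of libraries (10 genes in 4 groups) a library lay far from the others by Dixon's criterion, which chance alone flags in about 1 of 20 groups. Hsp90aa1 was at 378 FPKM in control replicate 2, with the next control library at 489 FPKM. Ahsa1 was at 58.4 FPKM in mutSOD1-ACM replicate 3, with the next library of that group at 66.2 FPKM. Bag3 was at 13.9 FPKM in mutSOD1-ACM replicate 4, with the next library of that group at 16.1 FPKM.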

How the results depend on the processing

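For polyP against control, 8 of the 10 genes were called as deposited, 4 after quantile normalization and in set 1 alone, and 6 to 9 when a library was left out. All genes called numbered 3779, against 6194 with the library set as a term, 2470 in set 1 alone, 5730 with the replicate block and 6631 with the 3-cluster term. Hspa8 (-0.09) and Hsp90ab1 (-0.05) turned sign after quantile normalization and Hsph1 (-0.04) with equal summed FPKM. For polyP against mutSOD1-ACM, 5 of the 10 were called, 3 under each other scaling and 1 in set 1 alone. Genes called numbered 2342, against 1479 with median-of-ratios scaling, 1533 with equal sums, 4287 with the set term, 116 in set 1, 4529 in set 2, 3767 with the replicate block, 5413 with the 3-cluster term and 5787 with the block in these groups alone. Signs turned for Dnajb1 (-0.00 with median-of-ratios scaling, -0.02 with equal sums), Hspa8 (-0.00, -0.02, and -0.12 after quantile normalization), Hsp90ab1 (-0.04 after quantile normalization) and Hsph1 (-0.05, -0.07, -0.03, and -0.01 in set 1; -0.03 to 0.02 with a library left out). For mutSOD1-ACM against control, 2 genes were called, 1 without a filter, with median-of-ratios scaling or with equal sums, 0 with only these groups or in set 1, 5 in set 2, with the replicate block or with the 3-cluster term, and 1 to 2 with a library left out. Hsp90ab1 turned to -0.01 after quantile normalization. For wtSOD1-ACM against control, 75 genes were called, 33 with only these groups, 143 with the set term, 119 with the replicate block and 239 with the 3-cluster term. Of the 10 genes 1 was called, and 0 in set 1. Ahsa1 turned sign (-0.00 with equal sums and with the set term, -0.01 after quantile normalization, -0.06 in set 2; -0.03 to 0.05 with a library left out), as did Hspe1 with a library left out (-0.02 to 0.09). For mutSOD1-ACM against wtSOD1-ACM, 56 genes were called, 99 with the set term, 96 with the replicate block and 119 with the 3-cluster term. The call of Bag3 was lost with only these groups (0 of the 10; adjusted p = 0.0694), in set 1 (0; adjusted p = 0.583) and with any library left out (0). Signs turned for Hsp90aa1 (-0.01 with equal sums, -0.02 after quantile normalization, -0.00 in set 2, -0.05 with the 3-cluster term; -0.01 to 0.04 with a library left out), Hsp90ab1 (-0.00, -0.07, and -0.02 with the 3-cluster term; -0.00 to 0.04), Hspa8 (-0.05 after quantile normalization, -0.02 with the 3-cluster term), Hspd1 (-0.03 in set 2, -0.01 with the 3-cluster term) and Hsph1 (-0.01, -0.02, -0.01, -0.02 in set 2, -0.03 with the 3-cluster term; -0.01 to 0.03). The cause of these changes was not tested, beyond fewer libraries in the fits of a set. Outside polyP against mutSOD1-ACM, where the pairing is given in the text, the replicate block changed no call of the 10 genes. Low FPKM carry more counting error, to an extent that is not known here.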
